A study of Homo sapiens with 12 samples.

Results

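RPE-1 cells that were refed in the presence of dimethyl amiloride (DMA) were compared with cells refed in solvent, gene by gene, in 3 libraries each, which makes 6 of the 12 libraries of the series. RPE-1 is a telomerase-immortalised human line from the pigment epithelium of the retina. Cells of every group had first been deprived of glucose and of fetal calf serum (FCS) for 24 h. Refed cells then spent 4 h in RPMI medium holding 10% FCS and 5 g/l glucose, with DMSO alone (the group FCS glc, called solvent here), with 100 µM DMA (FCS glc DMA) or with 10 µM C646 (FCS glc C646). The fourth group, starved, was not refed. Libraries carry the numbers 1 to 3 within each group, and the labels do not say whether a number stands for a separate culture, so all p-values measure only the spread between these samples, which may be technical. The title of the series concerns cell cycle progression and its dependence on pH.

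Amiloride analogs such as DMA block Na+/H+ exchangers, membrane proteins that export protons in exchange for sodium and are switched on by growth factors. Serum activates the kinase ERK, which turns on immediate early transcription factors and, with a delay, the phosphatases and SPRY proteins that restrain ERK again. A cell that leaves quiescence makes cyclin D, frees the E2F factors from the retinoblastoma protein, and then transcribes the genes of DNA replication. The tumour suppressor p53 holds this back, mainly through CDKN1A (p21), an inhibitor of cyclin-dependent kinases.

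The solvent libraries held 23472623 to 28968510 expected counts and the DMA libraries 20262061 to 22011436, and 15263 genes passed the filter on low counts. Levels are given as CPM, counts relative to the library total after TMM scaling (trimmed mean of M-values), and are compared only within a gene. For a single library, 3 reads correspond to 0.105 to 0.214 CPM, a limit that covers counting error only. Of 11 markers of retinal pigment epithelium, 7 passed the filter, among them the transcription factors MITF and OTX2, while RPE65, the isomerase of the visual cycle, and RLBP1, TYRP1 and TTR did not. Of 13 markers of other cell types 5 passed the filter, and none of these changed at an unadjusted p under 0.05. Solvent library 1 lay at the low end of the first principal component (-53.8, 34.9% of the variance), with high levels of replication genes. Solvent libraries 2 and 3 lay at -15.8 and -5.73 and DMA libraries 1 to 3 at 1.91, 35.2 and 38.2. This component thus also separated the groups and spread the DMA libraries. DMA libraries 1 and 2 stood apart from DMA library 3 in transcripts of RNA polymerase III. Both cases are described with the genes they touch. Fewer cells of a kind and less RNA per cell cannot be told apart in these bulk libraries.

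Under DMA, feedback inhibitors of ERK (6 of 19) and targets of p53 (6 of 30) rose, led by DUSP5, SPRY4, CDKN1A and BTG2. The G1/S regulators CCNE2, E2F1 and E2F2, 2 of 13 mitochondrially encoded subunits and single genes of ribosome assembly and protein folding fell. The test (edgeR, quasi-likelihood, adjusted p under 0.05) called 267 of 15263 genes (1.75%), 112 higher (0.734%) and 155 lower (1.02%), and 87 of them differed by at least 1 on the log2 scale. In 266 of the 267 the 3 DMA libraries lay entirely above or below the 3 solvent libraries, an arrangement seen in 23.2% of all genes tested. A second fit compared libraries of the same number by adding the number as a term, called the replicate block from here on. It called 1560 genes (10.2%), 726 higher (4.76%) and 834 lower (5.46%), and 266 of the 267 calls were among them. A gene is said below to have risen or fallen where it passed without the block, and a single gene marked "with the block" passed only there. Counts of list members with the block are totals of that fit and include the members that also passed without it.

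Single libraries weighed heavily on the counts. Without DMA library 2 only DUSP5 remained of the calls, without solvent library 1, 2 or 3 the test called 8, 30 and 232 genes, and without DMA library 1 or 3 it called 286 and 119. With the block the same omissions gave 432 genes without DMA library 2, 471, 386 and 1961 without solvent library 1, 2 or 3, and 980 and 463 without DMA library 1 or 3. In all 6 omissions 255 genes passed with the block, 106 higher and 149 lower. Among 68 called genes that the text could name by a fixed rule, 8, 22 and 54 stayed past the threshold without solvent library 1, 2 or 3 and 45, 1 and 39 without DMA library 1, 2 or 3, all 68 kept their sign, and the highest adjusted p was 0.195. All changes are relative to the other genes. With spike-in scaling the median log2 difference over all genes was 0.22 in place of 0.01, and 91 genes were called (0.596%), 85 higher and 6 lower, including 22 of those 68.

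**Figure D1:**
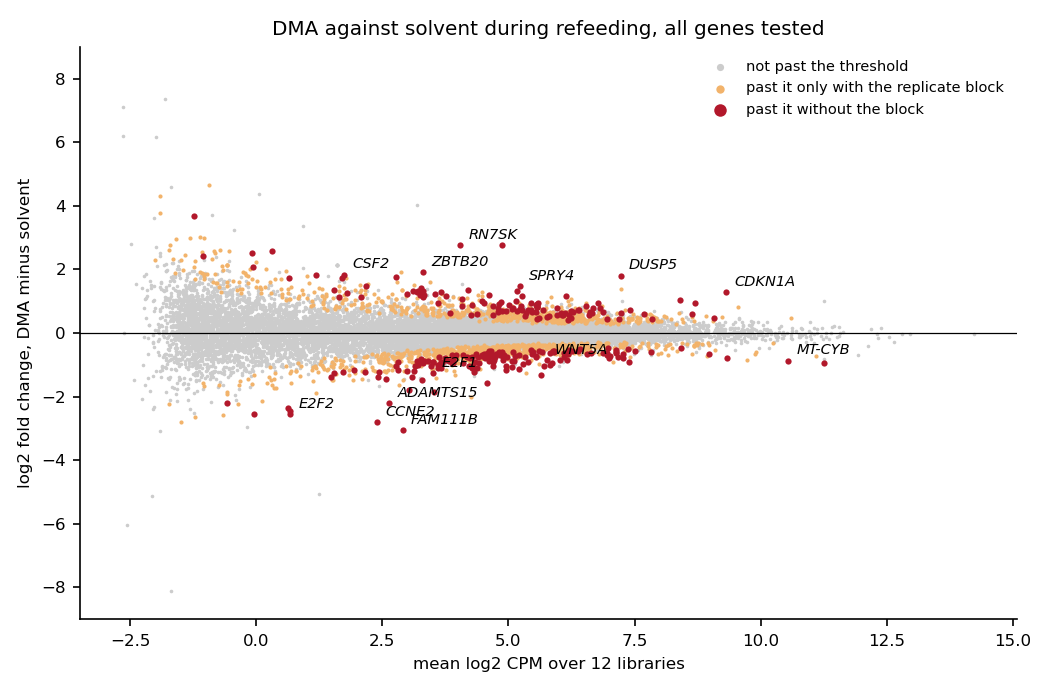
Each point is a gene tested, with its mean log2 CPM over the 12 libraries on the x axis and its log2 fold change (DMA minus solvent) on the y axis. Red points passed the threshold without the replicate block (267 genes), orange points only with it, and DUSP5 stands out among well-expressed genes at 1.81.

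DUSP5 showed the clearest response to DMA. This gene (chromosome 10, 110497838 to 110511544 on GRCh38) encodes a nuclear phosphatase that inactivates ERK and is itself induced by ERK signalling. DUSP5 measured 102, 106 and 119.5 CPM in solvent libraries 1 to 3 and 347, 420.2 and 382 CPM in DMA libraries 1 to 3. The groups were far apart, and the difference of 1.81 ± 0.14 (log2, SE, n = 3 per group), a 3.50-fold rise, had the smallest adjusted p of all genes (6.6e-05). Starved cells were close to the solvent cells, at 91.6, 94.5 and 90.5 CPM, and cells under C646 measured 119, 115 and 162 CPM. It was the single gene that stayed past the threshold without any 1 of the 6 libraries in the fit without the block.

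Several feedback inhibitors of ERK rose. Of 19 members tested, which are phosphatases of ERK and its relatives and proteins of the SPRY and SPRED families, 6 rose and none fell, and with the block 12 rose (0.734% and 4.76% of all genes rose). In 16 of 19 the difference was positive, and the median was 0.53 against 0.01 over all genes. SPRY4 (chromosome 5, 142310427 to 142326455), an inhibitor of receptor tyrosine kinase signalling, measured 27.3, 39.3 and 47.4 CPM under solvent and 82.5, 128 and 105 CPM under DMA. Each DMA library exceeded its same-numbered solvent library with log2 ratios of 1.59, 1.70 and 1.14, and the rise was 1.47 ± 0.22 (adjusted p = 0.015, and 9.7e-05 with the block). Its relative SPRY1 measured 8.47, 7.92 and 8.92 CPM under solvent and 16.1, 25.1 and 21.01 CPM under DMA, with no overlap, and rose by 1.30 ± 0.24 (adjusted p = 0.020).

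DUSP7, a cytoplasmic ERK phosphatase, measured 50.1, 45.2 and 53.97 CPM under solvent and 96.5, 86.2 and 87.5 CPM under DMA and rose by 0.86 ± 0.15 (adjusted p = 0.018). The other calls were SPRED2 (0.51), which blocks the activation of RAF, and ERRFI1 (0.60), an inhibitor of the EGF receptor, both named after their values were seen. DUSP6, the cytoplasmic phosphatase most used as a readout of ERK, measured 52.8, 63.5 and 87.03 CPM under solvent and 107, 149 and 174 CPM under DMA without overlap. It missed the threshold narrowly at 1.08 ± 0.25 (adjusted p = 0.051) and passed with the block (0.0019). DUSP6 is called uncertain because 40.5% of its exon bases overlap a gene on the opposite strand and the strand setting of the counting is not given. DUSP1, which acts mainly on the stress kinases p38 and JNK and is named after its values were seen, overlapped between the groups at 48.3, 50.6 and 44.6 CPM under solvent and 54.5, 36.5 and 32.5 CPM under DMA (-0.22 ± 0.41, adjusted p = 0.82). Without single libraries the list held 8 to 11 calls with the block and 1 to 5 without it, and the latter count was 1 without solvent library 1, solvent library 2 or DMA library 2.

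Immediate early transcription factors lay mostly above solvent, at smaller significance. Of 24 tested, 22 had a positive difference and the median was 0.73, but only KLF6 rose without the block, while 14 rose with it (4.76% of all genes did). KLF6, a zinc finger factor induced by injury and serum, measured 123, 89.1 and 100.2 CPM under solvent and 188, 173 and 183 CPM under DMA and rose by 0.80 ± 0.17 (adjusted p = 0.035). EGR1, a zinc finger factor driven by serum response factor and its ERK-regulated partners, measured 11.8, 17.1 and 18.9 CPM under solvent and 23.8, 32.1 and 47.1 CPM under DMA. The groups did not overlap, with DMA library 3 the highest, and the difference of 1.11 ± 0.38 passed only with the block (adjusted p = 0.14 without it and 0.018 with it).

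JUN, a subunit of the AP-1 transcription factor, was at 61.1, 82.5 and 89.4 CPM under solvent and 133, 132 and 133 CPM under DMA (0.78 ± 0.20, adjusted p = 0.067 without and 0.015 with the block). NR4A1, an orphan nuclear receptor, gave 0.72 (adjusted p = 0.017 with the block), and MAFF, a small bZIP factor, 0.59 (0.023). FOS, the classic partner of JUN, was low in all libraries, at 1.65, 2.96 and 1.32 CPM under solvent and 2.71, 4.87 and 4.18 CPM under DMA, and did not pass (0.99 ± 0.35, adjusted p = 0.064 with the block). MYC, a driver of growth genes, differed by less than its error, at 97.9, 108 and 81.97 CPM under solvent and 112, 89.3 and 82.5 CPM under DMA (-0.02 ± 0.26, adjusted p = 0.97). The count with the block was sensitive to single libraries: it was 2 without solvent library 1 or 2, 6, 4 and 3 without DMA library 1, 2 or 3, and 14 without solvent library 3.

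The promoter of EGR1 is shown because it carries the response elements named above. The RefSeq window (GRCh38.p14) runs from 120 bases before to 20 bases after the annotated start, 5′ to 3′, and capitals mark CArG boxes, the sequence bound by serum response factor. AREG, which encodes the EGF receptor ligand amphiregulin, is shown with its cAMP response element (TGACGTCA) in capitals.
EGR1, chr5:138465359-138465498, plus strand: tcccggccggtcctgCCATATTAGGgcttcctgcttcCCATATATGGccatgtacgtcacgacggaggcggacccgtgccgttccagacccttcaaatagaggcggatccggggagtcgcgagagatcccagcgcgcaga
AREG, chr4:74445016-74445155, plus strand: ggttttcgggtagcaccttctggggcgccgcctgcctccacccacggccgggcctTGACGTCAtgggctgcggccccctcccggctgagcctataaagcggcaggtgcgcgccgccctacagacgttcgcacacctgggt
Promoters in the RefSeq table, 250 bases before to 50 after the start and searched on both strands, were found for 11362 of the genes tested. A CArG box was present in 1.06% of them and in 2 of 18 immediate early genes (11.1%). The cAMP response element was present in 3.27% of all, in 2 of 17 ERK feedback genes (11.8%) and in 3.41% of the genes that rose. No CArG box was found in the 88 promoters of genes that rose without the block, and 1.07% of those that rose with it held one. A match says only that these letters are in the window.

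AREG measured 1.69, 1.000 and 1.40 CPM under solvent and 2.76, 3.58 and 3.75 CPM under DMA, with no overlap, and its difference of 1.30 ± 0.39 passed with the block (adjusted p = 0.098 without and 0.023 with it). Among 10 tested ligands and receptors of the EGF receptor family none passed in edgeR without the block (2 at an unadjusted p under 0.05), 2 passed with it and 2 in DESeq2. The list of 15 ETS factors and other readouts of ERK held 6 genes that rose and 1 that fell with the block (4.76% and 5.46% of all genes did), none without, at a median of 0.43. ETV4, an ETS factor, was at 12.8, 9.50 and 16.1 CPM under solvent and 22.3, 22.5 and 26.7 CPM under DMA (0.90 ± 0.21, adjusted p = 0.013 with the block), and PLAUR, the receptor of urokinase, at 0.47 (0.027). HMGA2, a chromatin protein that rises with growth factor signalling, was the member that fell, by 0.63 ± 0.16 (adjusted p = 0.064, and 0.011 with the block).

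Targets of p53 were the second group with several calls. Of 30 tested, 6 rose and none fell, and with the block 14 rose (0.734% and 4.76% of all genes rose), with a median of 0.47 and 26 positive differences. CDKN1A (chromosome 6, 36676460 to 36687339), which encodes the cyclin-dependent kinase inhibitor p21, measured 336, 364 and 529 CPM under solvent and 1089, 958 and 929 CPM under DMA. All DMA libraries lay well above the solvent libraries, by 1.28 ± 0.22 (a 2.42-fold rise, adjusted p = 0.018). BTG2, an antiproliferative co-regulator of mRNA decay, measured 16.7, 22.7 and 20.9 CPM under solvent and 46.9, 49.5 and 41.1 CPM under DMA and rose by 1.19 ± 0.22 (adjusted p = 0.023). Of the other tested members of the BTG and TOB family none passed.

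TNFRSF10B, a death receptor for the ligand TRAIL, rose by 0.95 ± 0.16 from 282, 273 and 314 to 597, 527 and 558 CPM (adjusted p = 0.018). AEN, an exonuclease of the apoptotic response, rose by 0.96 ± 0.16 and the stress kinase PLK3 by 0.95 ± 0.17 (adjusted p = 0.018 and 0.019). EDA2R, a receptor of the TNF family named after its value was seen, rose by 0.83 (adjusted p = 0.035). Other targets did not pass. MDM2, the ubiquitin ligase of p53 and one of its main targets, overlapped between groups at 203, 186 and 295 CPM under solvent and 304, 296 and 279 CPM under DMA (0.36 ± 0.24, adjusted p = 0.45). FAS, BAX and CCNG1, named after their values were seen, gave 0.07, 0.23 and -0.09 (adjusted p = 0.87, 0.52 and 0.76). None of the 7 genes of p53 and its regulators passed without the block, and MDM4, which restrains p53, fell with it (-0.58, adjusted p = 0.024). Without solvent library 1, solvent library 2 or DMA library 2, none of the p53 targets passed without the block, and 9, 7 and 5 passed with it.

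Of the BCL2 family, BCL2L1 rose. It encodes the survival protein BCL-XL, measured 321, 356 and 433 CPM under solvent and 559.6, 521 and 595 CPM under DMA and rose by 0.59 ± 0.12 (adjusted p = 0.028), but 43.0% of its exon bases overlap an antisense gene, so it is uncertain. BBC3, the pro-apoptotic protein PUMA and a p53 target, was low under solvent, at 1.44, 2.17 and 6.46 CPM, and at 12.8, 11.2 and 14.1 CPM under DMA. Its difference of 1.93 ± 0.45 missed the threshold narrowly without the block (adjusted p = 0.051) and passed with it (0.037).

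**Figure D2:**
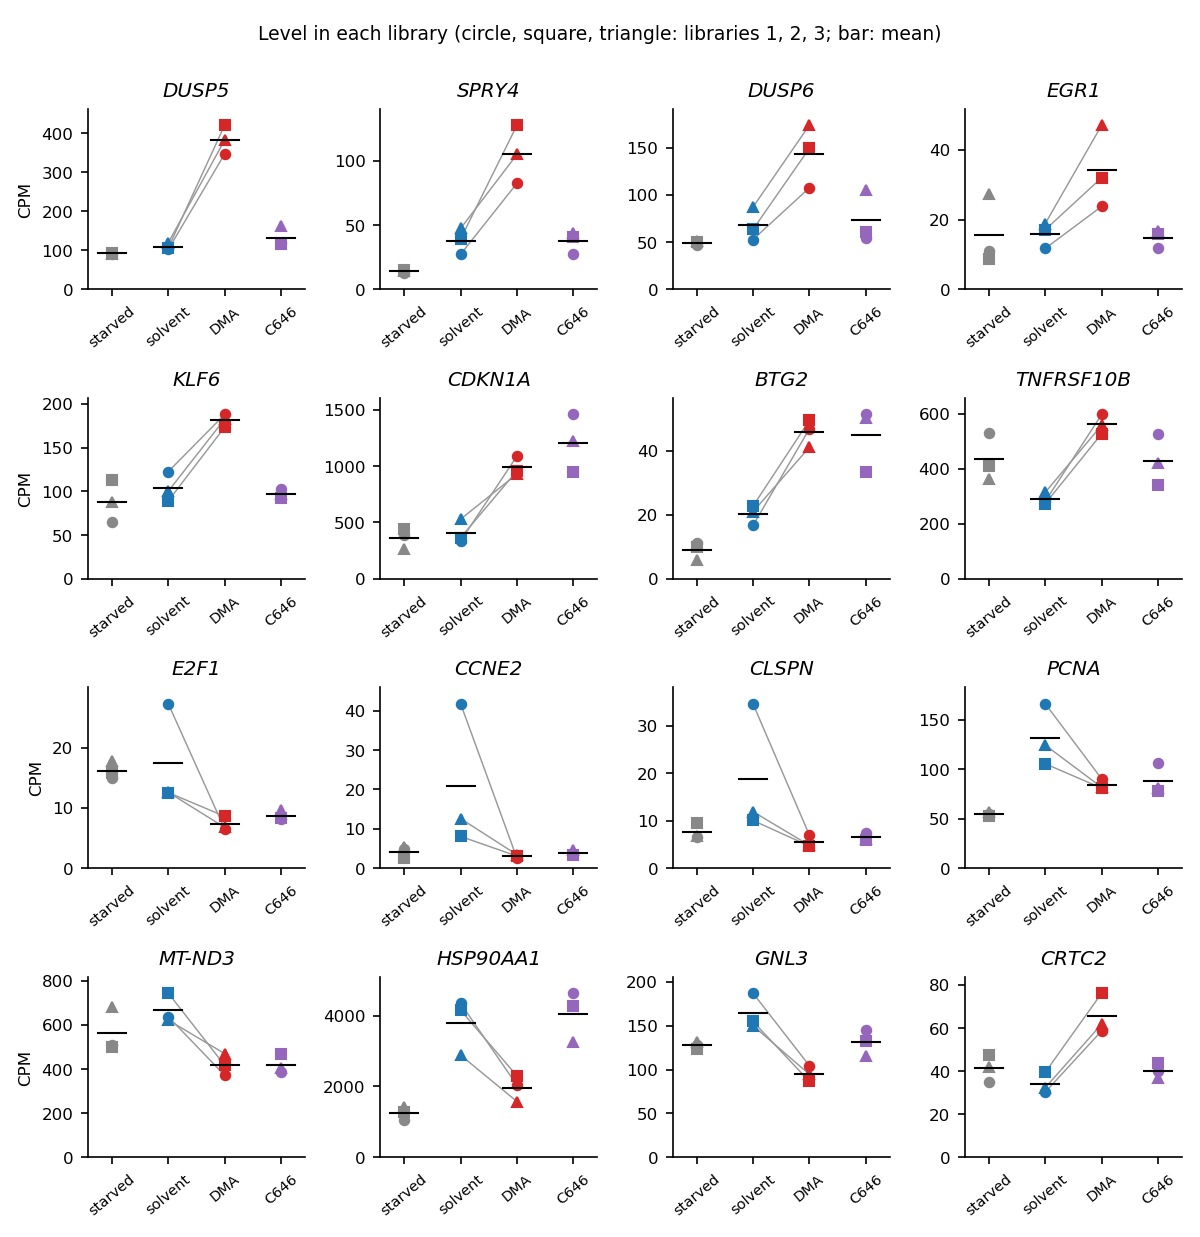
Level of 16 genes in CPM (y axis, from 0) in every library of the 4 groups (x axis), with symbols for libraries 1, 2 and 3, black bars for group means, and lines joining solvent and DMA libraries of the same number. DUSP5, SPRY4, KLF6 and CDKN1A are higher in every DMA library than in any solvent library, while E2F1, CCNE2 and CLSPN are highest in solvent library 1 and lower in all DMA libraries than in any solvent library.

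The G1/S regulators moved the other way. CCNE2, a cyclin E that drives entry into S phase, measured 41.8, 8.04 and 12.6 CPM under solvent and 2.46, 3.04 and 3.38 CPM under DMA and fell by 2.81 ± 0.52 (adjusted p = 0.023). All 3 DMA libraries lay below every solvent library, but solvent library 1 was several times higher than the other solvent libraries. The same-numbered log2 ratios were -4.04, -1.38 and -1.87. CCNE2 is uncertain because 37.1% of its exon bases overlap an antisense gene. CCNE1, the second cyclin E, was at 8.61, 4.46 and 3.44 CPM under solvent and 1.86, 1.83 and 3.14 CPM under DMA (-1.27 ± 0.35, adjusted p = 0.080 without and 0.029 with the block). CCND1, the cyclin D that links growth factors to the cell cycle, was at 1577, 1186 and 1300 CPM under solvent and 1268, 721 and 727 CPM under DMA and fell with the block (-0.58 ± 0.28, adjusted p = 0.27 without and 0.029 with it).

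CCND3, another cyclin D, lay without overlap in the opposite direction, at 48.2, 44.8 and 46.7 CPM under solvent and 66.7, 62.99 and 57.8 CPM under DMA (0.42, adjusted p = 0.031 with the block). CDC25A, the phosphatase that activates cyclin E kinase, was at 44.7, 15.9 and 20.9 CPM under solvent and 15.1, 15.5 and 19.2 CPM under DMA and did not pass (-0.71 ± 0.31, adjusted p = 0.23 without and 0.17 with the block). In all, 1 of 12 genes of G1 cyclins, their kinases and CDC25A fell without the block (1.02% of all genes did). With the block 3 fell and 1 rose (5.46% and 4.76% of all genes did). Without solvent library 1 the median of that list was 0.00 in place of -0.23, and under spike-in scaling it was 0.05. Of 6 other CDK inhibitors tested, CDKN2A (0.51) and CDKN2B (0.83) rose with the block (adjusted p = 0.021 and 0.038).

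Among 13 genes of the E2F and pocket protein families, E2F1 and E2F2 fell, both activators of replication genes, and no gene rose with or without the block. With the block 4 of the 13 fell. Over all genes 1.02% fell without the block and 5.46% with it. E2F1 (chromosome 20, 33675683 to 33686404) measured 27.3, 12.5 and 12.6 CPM under solvent and 6.48, 8.58 and 6.75 CPM under DMA and fell by 1.26 ± 0.27 (adjusted p = 0.037). Solvent library 1 was again the highest, and the other solvent libraries still lay above all DMA libraries. Starved cells held 14.9, 15.8 and 17.8 CPM of E2F1, more than any DMA library. E2F2 measured 10.2, 1.83 and 3.53 CPM under solvent and 0.954, 1.03 and 0.665 CPM under DMA and fell by 2.55 ± 0.55 (adjusted p = 0.039). RBL1, the pocket protein p107 and itself a target of E2F, and E2F6, a repressor, fell with the block (-0.91 and -0.43, adjusted p = 0.037 and 0.032). E2F3, an activator, and E2F4, the main repressor partner of the pocket proteins, gave 0.02 and 0.23 and overlapped between the groups (both named after their values were seen). Over the list 7 of 13 differences were positive, at a median of 0.02. In the test without the block the list held no call without solvent library 1 or any 1 DMA library. It held 1 without solvent library 2 and 2 without solvent library 3. With the block it held 1, 2 and 4 calls without solvent library 1, 2 or 3, and 0, 1 and 0 without DMA library 1, 2 or 3.

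The promoters of E2F1, E2F2, CLSPN and PCNA are shown because all 4 genes were lower in every DMA library and each window holds an E2F element. Windows cover 120 bases before to 20 after the RefSeq start (GRCh38.p14), 5′ to 3′. Capitals mark the letters searched, TTTCCCGC, TTTGGCGC, TTTCGCGC or TTTGCCGC, or their reverse complements.
E2F1, chr20:33686366-33686505, minus strand: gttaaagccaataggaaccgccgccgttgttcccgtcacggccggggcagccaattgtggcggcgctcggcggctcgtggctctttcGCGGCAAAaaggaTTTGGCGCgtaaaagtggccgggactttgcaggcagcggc
E2F2, chr1:23531214-23531353, minus strand: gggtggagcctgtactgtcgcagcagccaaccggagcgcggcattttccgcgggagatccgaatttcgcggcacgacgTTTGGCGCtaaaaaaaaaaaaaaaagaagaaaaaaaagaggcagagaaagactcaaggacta
CLSPN, chr1:35769959-35770098, minus strand: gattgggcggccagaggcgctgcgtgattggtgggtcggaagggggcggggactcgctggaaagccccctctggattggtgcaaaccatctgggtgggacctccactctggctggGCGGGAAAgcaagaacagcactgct
PCNA, chr20:5126603-5126742, minus strand: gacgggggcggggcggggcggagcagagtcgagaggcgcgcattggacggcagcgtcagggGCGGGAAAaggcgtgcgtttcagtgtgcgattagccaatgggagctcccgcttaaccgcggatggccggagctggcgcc
In the 300-base promoters these letters were present in 5.22% of the 11362 genes tested (593). They were present in 8.73% of 126 genes that fell and in 2.27% of 88 that rose, and in 7.79% of 655 that fell and 3.56% of 562 that rose with the block. By list, and irrespective of the test, 12 of 23 origin licensing genes (52.2%), 9 of 23 fork and polymerase genes (39.1%), 5 of 21 checkpoint and recombination genes (23.8%) and 5 of 11 genes of the E2F family (45.5%) held it. Matched letters are a description and not evidence of binding.

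DNA replication genes were lower under DMA in many members and passed the test in few. Of 27 genes of the replication fork, 24 had a negative difference (median -0.61) and 12 lay entirely below solvent (11.9% of all genes did). In this list 2 fell and 9 fell with the block (1.02% and 5.46% of all genes did). FAM111B, a protease expressed in S phase, had the largest fall of all named genes: it measured 65.8, 13.5 and 19.3 CPM under solvent and 5.22, 3.80 and 2.95 CPM under DMA and fell by 3.04 ± 0.50 (adjusted p = 0.018). Its level in starved cells was 5.55, 4.06 and 5.13 CPM. RPA2, a subunit of the single-strand binding protein RPA, fell by 0.61 ± 0.14 from 48.5, 37.5 and 35.1 to 27.5, 26.3 and 25.9 CPM (adjusted p = 0.045).

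PCNA, the sliding clamp of the polymerases, measured 166, 105 and 124 CPM under solvent and 90.1, 80.7 and 81.5 CPM under DMA without overlap and passed with the block (-0.65 ± 0.16, adjusted p = 0.056 without and 0.0064 with it). POLE2, a subunit of polymerase epsilon, was low throughout, at 4.71, 1.58 and 2.04 CPM under solvent and 1.05, 0.626 and 0.856 CPM under DMA (-1.72 ± 0.45, adjusted p = 0.0076 with the block). CLSPN, which couples stalled forks to the kinase CHEK1, measured 34.6, 10.04 and 11.9 CPM under solvent and 6.98, 4.65 and 4.80 CPM under DMA and fell by 1.79 ± 0.40 (adjusted p = 0.043). It was the only member of 24 in the list of fork checkpoint and recombination to fall without the block, and 6 fell with it, including XRCC2, a recombination protein (-1.15, adjusted p = 0.021), and BLM, a helicase (-1.22, 0.023). All 24 differences in that list were negative, and 4 of the 24 genes lay entirely below solvent (11.9% of all genes did). Over all genes 1.02% fell without the block and 5.46% with it.

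Origin licensing genes followed the same direction with no call. Of 27, 25 differences were negative (median -0.59) and 12 genes lay entirely below solvent (11.9% of all genes did). Yet none fell without the block in edgeR (15 had an unadjusted p under 0.05). In DESeq2 8 fell, and 2 fell in edgeR with the block (5.46% of all genes did). Those 2 are the kinase that fires origins, CDC7 (-1.17, adjusted p = 0.024), and its activator DBF4 (-0.72, 0.020, uncertain for shared sequence). MCM10, a DNA replication factor, measured 40.4, 9.46 and 13.4 CPM under solvent and 7.99, 7.42 and 8.56 CPM under DMA and did not pass (-1.40 ± 0.43, adjusted p = 0.11 without and 0.12 with the block). WDR76, a chromatin protein outside the lists that was named for its size, measured 52.3, 13.96 and 15.9 CPM under solvent and 7.18, 7.42 and 8.08 CPM under DMA and fell by 1.86 ± 0.40 (adjusted p = 0.039).

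These falls were largest against solvent library 1. Over the same-numbered ratios 1 to 3, the median log2 ratio was -0.92, -0.16 and -0.39 for origin licensing, -0.99, -0.21 and -0.42 for the fork and -1.13, -0.24 and -0.41 for checkpoint and recombination, and each stayed below 0. Without solvent library 1 the fitted medians were -0.27, -0.28 and -0.17, the fork list held 1 call without and 2 with the block, the checkpoint list 0 and 1, and the origin list none. Of the 155 genes that fell, 106 had their highest solvent value in library 1. Of all 15263 genes 5441 had it there, and of the 112 genes that rose, 65 had their lowest solvent value in library 1. The highest counts with the block came without solvent library 3 (8, 13 and 8 genes of the 3 lists). The 30 mitotic genes, for comparison, had same-numbered medians of -0.17, 0.19 and 0.06. What set solvent library 1 apart was not tested. Under spike-in scaling the medians were -0.20, -0.31 and -0.24, and 1 fork gene and no gene of the other 2 lists fell.

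**Figure D3:**
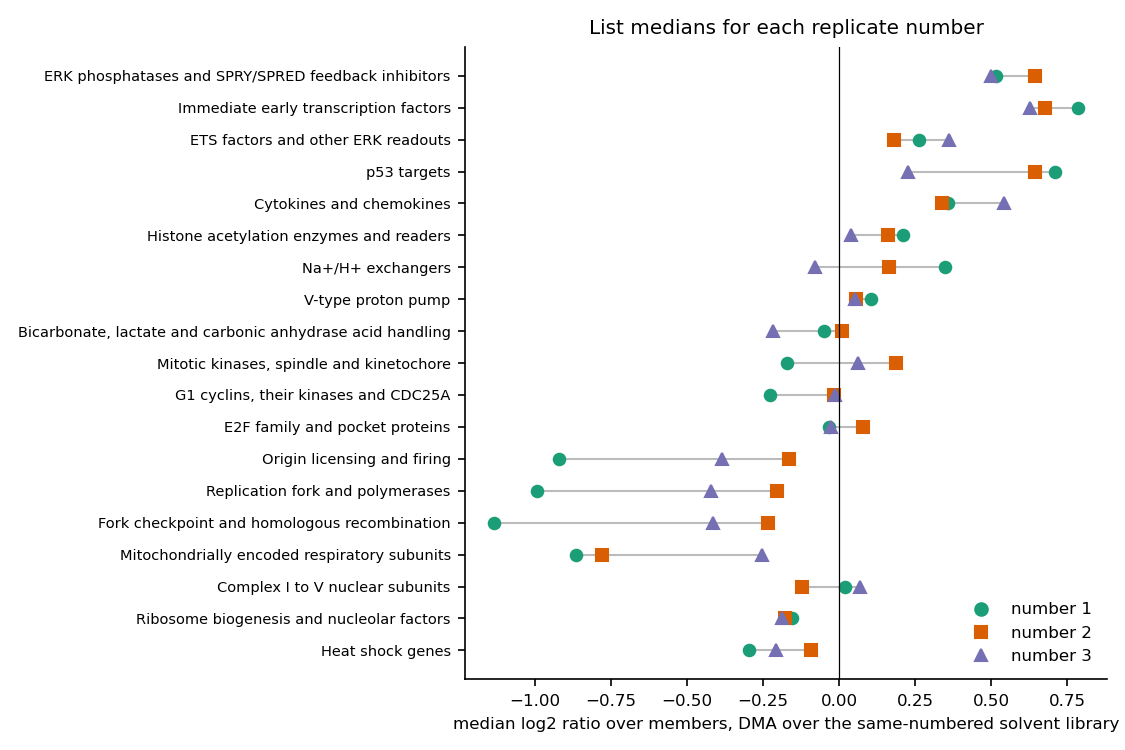
Median log2 ratio of DMA over the same-numbered solvent library for 19 gene lists (y axis), one symbol per replicate number. The ERK feedback, immediate early and p53 lists are above 0 for all 3 numbers, and the 3 replication lists are below 0 for all 3 numbers and lowest for number 1.

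Mitotic genes and replication-dependent histone genes gave no calls. None of 30 mitotic genes and none of 15 replication-dependent histone genes passed in edgeR with or without the block or in DESeq2, and the medians were -0.04 and 0.19. An unadjusted p under 0.05 was found for 1 mitotic gene and for no histone gene, against 2960 of all genes tested (edgeR, no block). The 22 listed histone genes together measured only 48.21, 85.1 and 72.92 CPM under solvent and 64.65, 74.22 and 63.98 CPM under DMA. Of these, 15 passed the filter, and how far the poly-A selection removed histone transcripts was not tested. Of 9 deoxynucleotide synthesis genes, CTPS1, a CTP synthase, fell with the block (-0.49, adjusted p = 0.028).

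**Figure D4:**
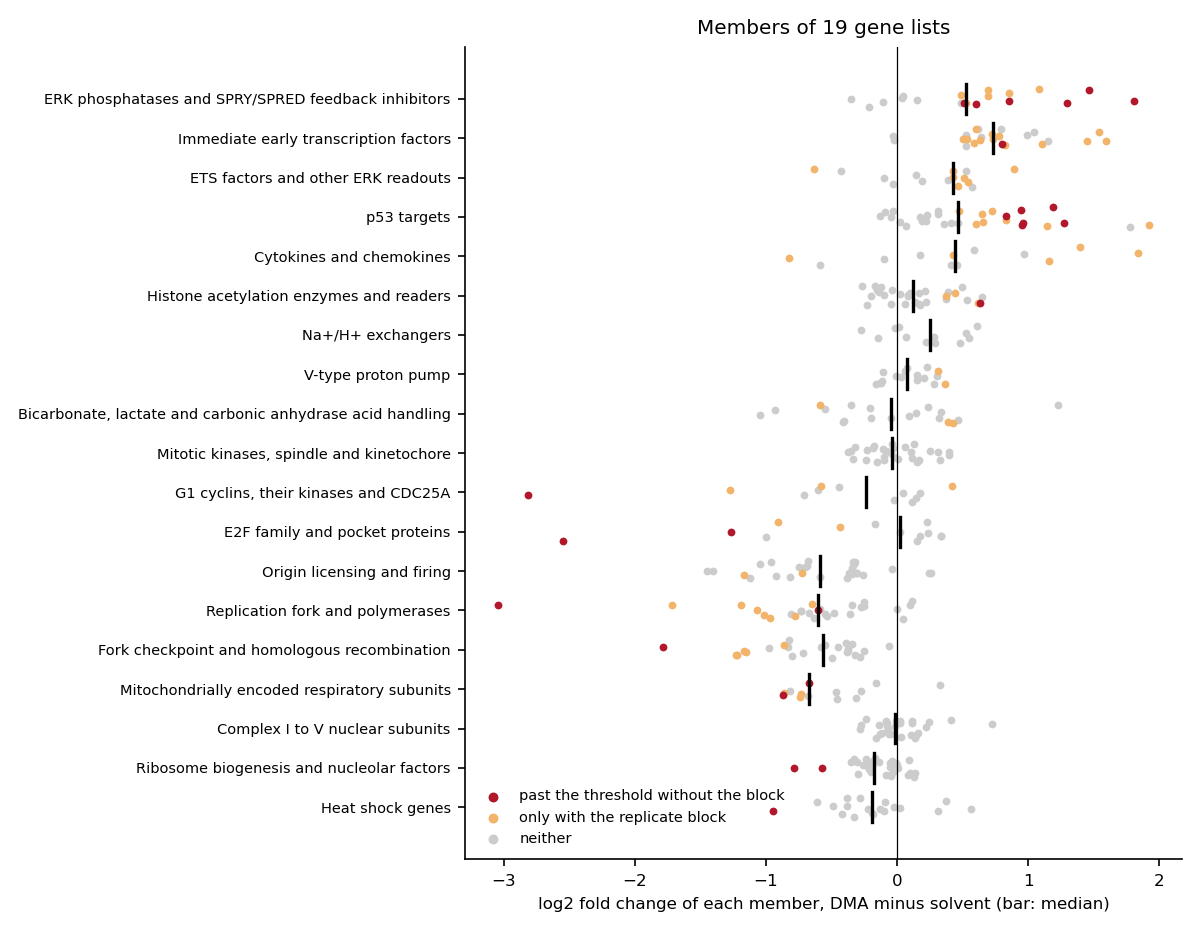
Log2 fold change (DMA minus solvent, x axis) of every tested member of 19 gene lists (y axis), with black bars for list medians and colours for the calls. The ERK feedback list has its median at 0.53 and 6 red points, and the fork list has its median at -0.61 with 2.

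Transcripts encoded by mitochondrial DNA were lower under DMA. They took 2.04% ± 0.355 of the counts in the DMA libraries and 2.90% ± 0.388 in the solvent libraries (SD, n = 3), with ranges of 1.67% to 2.38% and 2.48% to 3.24% that do not overlap (exact permutation test, two-sided, p = 0.1, the smallest value that 3 against 3 allows). Among all genes tested, 1.02% fell, 5.46% fell with the block and 11.9% lay entirely below solvent. Of 13 respiratory subunits 2 fell, 5 fell with the block and 7 lay entirely below solvent, with a median of -0.67. MT-ND3, a subunit of complex I, measured 637, 744 and 622 CPM under solvent and 372, 417 and 469.8 CPM under DMA and fell by 0.67 ± 0.14 (adjusted p = 0.035). MT-CYB, the cytochrome b of complex III, measured 2144, 2142 and 1596 CPM under solvent and 894, 1098 and 1222 CPM under DMA and fell by 0.87 ± 0.20 (adjusted p = 0.044).

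Not all subunits moved alike. MT-CO1, a core subunit of cytochrome oxidase, overlapped between the groups at 7400, 7233 and 5302 CPM under solvent and 5242, 5257 and 5998 CPM under DMA (-0.27 ± 0.19, adjusted p = 0.47, uncertain because 66.7% of its 31-base words are shared with other genes). MT-ND6, named after its value was seen, is the only protein gene on the opposite strand of the mitochondrial genome and was the only member with a positive difference, at 40.9, 28.8 and 28.4 CPM under solvent and 49.9, 40.8 and 32.8 CPM under DMA (0.33 ± 0.21, adjusted p = 0.41 without and 0.089 with the block). The other 12 members were negative, from -0.16 for MT-ND1 (also named after its value was seen) to -0.87 for MT-CYB. The list medians by number were -0.87, -0.78 and -0.25. In the test without the block the list held no call without solvent library 1, solvent library 2, DMA library 1 or DMA library 2, 1 without DMA library 3 and 3 without solvent library 3. With the block it held 1 call without solvent library 1, solvent library 2 or DMA library 3, 2 without DMA library 1 or 2, and 12 without solvent library 3. Spike-in scaling gave no call and a median of -0.44. Of 31 nuclear-encoded subunits of the same complexes none passed in edgeR, with or without the block, or in DESeq2 (4 had an unadjusted p under 0.05 without the block), at a median of -0.01. Of 16 tested genes of mitochondrial transcription and replication, none passed without the block and 2 fell with it (5.46% of all genes did), at a median of -0.09. These 2 were FASTKD2 and LRPPRC, which stabilise mitochondrial RNA (-0.54 and -0.33, adjusted p = 0.0072 and 0.031).

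Transcripts of RNA polymerase III separated the DMA libraries from each other. RN7SK, the 7SK RNA that holds the elongation factor P-TEFb inactive, measured 11.7, 8.002 and 11.3 CPM under solvent and 107, 90.8 and 12.2 CPM under DMA, so that DMA libraries 1 and 2 stood far above and DMA library 3 was close to the solvent level. RN7SL2, an RNA of the signal recognition particle, measured 19.2, 16.1 and 23.97 CPM under solvent and 242, 144 and 22.4 CPM under DMA. Both passed without the block (2.76 ± 0.56 and 2.78 ± 0.60, adjusted p = 0.035 and 0.041) and RN7SL2 not with it (0.069). Both are uncertain, since 100% and 94.8% of their 31-base words are shared with other genes. RMRP and RPPH1, the RNAs of the ribonucleases MRP and P and named after their values were seen, had the same arrangement: RPPH1 measured 0.457, 0.292 and 1.02 CPM under solvent and 22.7, 13.4 and 0.618 CPM under DMA. Neither passed (adjusted p = 0.092 and 0.057).

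Without DMA library 1 or 2, and without any 1 solvent library, none of these 6 transcripts passed without the block. Without DMA library 3, 3 of them did. The libraries were made from poly-A RNA, which these transcripts mostly lack, so their level also depends on how completely the selection removed them, and that was not tested. ZBTB20, a zinc finger gene that was named for its size, had the same arrangement at 4.36, 4.71 and 5.57 CPM under solvent and 24.3, 24.3 and 6.70 CPM under DMA (1.92 ± 0.43, adjusted p = 0.044, uncertain for shared sequence).

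**Figure D5:**
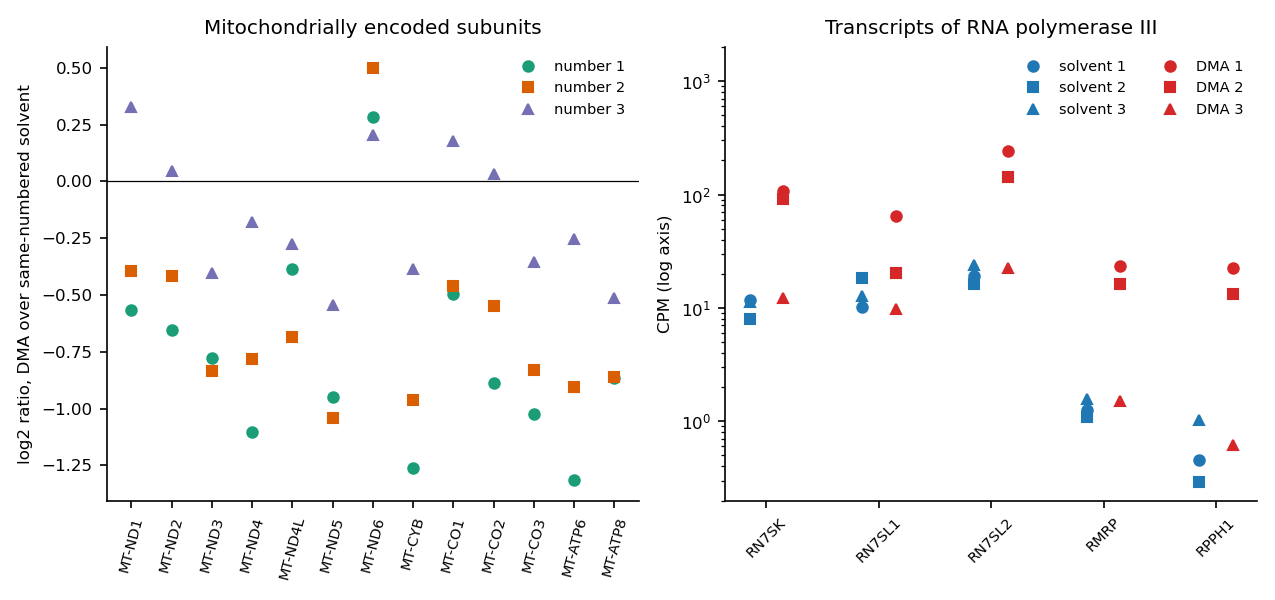
Left, log2 ratio of DMA over the same-numbered solvent library (y axis) for 13 mitochondrially encoded subunits (x axis), with MT-ND6 above 0 for all 3 numbers. Right, CPM on a log axis for 5 transcripts of RNA polymerase III in solvent (blue) and DMA (red) libraries, with DMA libraries 1 and 2 high and DMA library 3 near solvent for 4 of them, and DMA library 1 alone high for RN7SL1.

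Proteins that act with 7SK on elongation were also counted, and 2 of 18 rose against 0.734% of all genes. Of 18, ELL, a subunit of elongation complexes, rose by 0.87 ± 0.19 from 11.4, 15.04 and 16.6 to 24.4, 28.8 and 25.4 CPM (adjusted p = 0.040), and HEXIM2, which inhibits P-TEFb when bound to 7SK, rose by 1.14 ± 0.25 (adjusted p = 0.040, uncertain for an overlapping gene). HEXIM1, its more abundant relative, did not pass (0.28 ± 0.18, adjusted p = 0.41). DMA library 3 was as high as the other DMA libraries in ELL, and HEXIM2 measured 2.32, 3.42 and 2.98 CPM under solvent and 4.77, 7.02 and 7.37 CPM under DMA. Among 30 histone acetylation enzymes and readers EP300 rose, and 4 rose with the block (0.734% and 4.76% of all genes rose). EP300, the acetyltransferase p300 and a target of C646, measured 67.7, 81.5 and 82.99 CPM under solvent and 125, 125 and 109.5 CPM under DMA and rose by 0.63 ± 0.12 (adjusted p = 0.023). Its relative CREBBP, also a target of C646, was at 0.62 (adjusted p = 0.080 without and 0.011 with the block).

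Exchangers, pumps and transporters of acid and sodium gave no call without the block. None of 12 tested exchangers and their regulators passed either edgeR fit or DESeq2 (1 had an unadjusted p under 0.05 without the block), at a median of 0.25. Calls with the block were 0 of 12 exchangers, 2 of 17 pump genes, 3 of 19 genes of bicarbonate and lactate and 2 of 23 genes of sodium, potassium and chloride, against 10.2% of all genes. In the V-type proton pump, which acidifies lysosomes, the calls were ATP6V0B and ATP6V0D1 (0.37 and 0.31, adjusted p = 0.023 and 0.040).

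Among genes of bicarbonate, lactate and carbonic anhydrase acid handling, SLC26A6, an anion exchanger, and CA11, a relative of the carbonic anhydrases, rose with the block (0.42 and 0.39), and SLC26A2, a sulphate transporter, fell (-0.59, adjusted p = 0.010). Among those for sodium, potassium and chloride, the kinase WNK1 (0.45) and the potassium-chloride cotransporter SLC12A4 (0.58) rose with the block (adjusted p = 0.011 and 0.0083). From the list of acid-sensing receptors and CREB targets CRTC2, a coactivator of the cAMP-responsive factor CREB, measured 30.3, 39.5 and 32.4 CPM under solvent and 58.7, 76.2 and 61.9 CPM under DMA and rose by 0.95 ± 0.15 (adjusted p = 0.018), while CREB1 itself fell with the block (-0.42, 0.039).

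Ribosome assembly and folding genes shifted little as lists and had single falls. Over all genes 1.02% fell without the block and 5.46% with it, the shares to set beside each list here. Of 34 nucleolar and ribosome assembly genes, GNL3 and NOP56 fell and no other passed either fit. In this list 28 differences were negative, at a median of -0.18 that became 0.07 under spike-in scaling. GNL3, the nucleolar GTPase nucleostemin, measured 187, 155 and 150.2 CPM under solvent and 104, 86.6 and 94.7 CPM under DMA and fell by 0.79 ± 0.12 (adjusted p = 0.015). NOP56, a core protein of box C/D small nucleolar particles, fell by 0.57 ± 0.12 (adjusted p = 0.035). Of 19 heat shock genes only HSP90AA1, the inducible HSP90 chaperone, fell, by 0.95 ± 0.19 from 4344, 4150 and 2882 to 2032, 2297 and 1575 CPM (adjusted p = 0.030, uncertain for shared sequence). BAG2, a co-chaperone of HSP70, fell by 0.77 ± 0.10 (adjusted p = 0.010, uncertain for an overlapping gene). SRSF6 fell as the only member of 20 SR splicing factors and CLK kinases (-0.78 ± 0.15, adjusted p = 0.024).

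Metabolic genes gave few calls. HKDC1, a hexokinase-like enzyme, was the only member of 25 glycolysis genes to fall, from 6.92, 6.96 and 8.202 to 2.06, 2.33 and 4.09 CPM (-1.38 ± 0.29, adjusted p = 0.035). With the block 3 of the 25 fell (5.46% of all genes did), including LDHA, lactate dehydrogenase, and HK2, a hexokinase (-0.52 and -0.53, adjusted p = 0.019 and 0.030). PFKFB4, a regulator of glycolysis, rose with the block (0.56, 0.049). Of 30 sterol genes 2 fell with the block (5.46% of all genes did), among them MVK, mevalonate kinase (-0.63, adjusted p = 0.033), while HMGCS1, an enzyme of the same pathway, did not pass (-0.33, adjusted p = 0.13 with the block). Neither TXNIP, which responds to glucose (-0.41 ± 0.56), nor ODC1 of polyamine synthesis (-0.06 ± 0.17), nor the chaperone HSPA5 (-0.01 ± 0.34) passed (adjusted p = 0.74, 0.88 and 0.99).

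Of 12 cytokines and chemokines, 4 rose and 1 fell with the block (4.76% and 5.46% of all genes did) and 7 did not pass. None passed in edgeR without the block (5 had an unadjusted p under 0.05), while 3 rose in DESeq2. CSF2, the cytokine GM-CSF, measured 3.90, 4.08 and 2.76 CPM under solvent and 19.04, 10.7 and 8.84 CPM under DMA (1.84 ± 0.50, adjusted p = 0.077 without and 0.014 with the block). CSF1, the macrophage growth factor, measured 73.6, 94.3 and 224 CPM under solvent and 229.8, 333 and 466 CPM under DMA (1.39 ± 0.37, 0.014 with the block), and the chemokine CXCL8 26.1, 20.8 and 45.5 CPM under solvent and 45.2, 62.2 and 99.3 CPM under DMA (1.16 ± 0.46, 0.011 with the block). In CXCL8 the groups overlap, while each DMA library exceeds the solvent library of its number. ESM1, a secreted proteoglycan outside that list, was named for its p with the block: 34.6, 6.58 and 10.8 CPM under solvent and 90.02, 19.3 and 24.2 CPM under DMA gave same-numbered log2 ratios of 1.38, 1.54 and 1.16 and an adjusted p of 0.34 without and 0.0015 with the block. CCL2, a chemokine for monocytes, fell with the block (-0.82, adjusted p = 0.031).

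ID3, which blocks helix-loop-helix transcription factors, measured 28.2, 36.1 and 51.5 CPM under solvent and 65.7, 64.6 and 88.5 CPM under DMA and rose by 0.92 ± 0.21 (adjusted p = 0.045). Of the other large or steady changes, COL6A3, a collagen VI chain, rose from 37.4, 49.7 and 35.1 to 89.8, 130.5 and 88.3 CPM (1.34 ± 0.30, adjusted p = 0.044). HIVEP3, a zinc finger factor, rose from 13.9, 10.4 and 13.8 to 30.2, 29.3 and 30.2 CPM (1.23 ± 0.17, 0.011), and NAB2, a corepressor of EGR factors, from 26.7, 25.7 and 32.4 to 49.4, 68.4 and 70.7 CPM (1.15 ± 0.17, 0.014). PRAG1 (1.43), TOX (1.48), UBALD2 (1.35), CLDN15 (1.33), FAM131B (1.32), LCAT (1.32), RBM38 (1.29), WHRN (1.24) and EPHB6 (1.18) also rose. Of these, CLDN15 is a claudin, LCAT esterifies cholesterol in plasma, RBM38 is an RNA-binding target of p53 and EPHB6 is an ephrin receptor without kinase activity.

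On the side of the falls, ADAMTS15, a secreted metalloprotease, measured 8.54, 4.21 and 8.58 CPM under solvent and 2.26, 1.03 and 1.38 CPM under DMA and fell by 2.20 ± 0.34 (adjusted p = 0.015). Its level in starved cells was far higher, at 34.2, 25.4 and 38.9 CPM. AP3M2, a subunit of the adaptor AP-3, measured 43.1, 35.7 and 27.7 CPM under solvent and 13.8, 11.6 and 10.2 CPM under DMA and fell by 1.58 ± 0.18 (adjusted p = 0.0053, and 9.7e-05 with the block). MED8, a Mediator subunit, fell by 1.16 ± 0.14 and WNT5A, a secreted ligand of noncanonical WNT signalling, by 0.85 ± 0.11 (adjusted p = 0.0072 and 0.0080). DLG1, a scaffold of cell polarity, fell from 952, 756 and 732 to 506, 459 and 459 CPM (-0.78 ± 0.14, 0.019). SHISA2 (-1.48), ZNF589 (-1.37), NREP (-1.32), LRRC8B (-1.22), HEATR3 (-1.22), FPGT (-1.20), FAM217B (-1.08), KBTBD6 (-1.04), GCNT1 (-1.03), PUS7 (-1.02) and RBM12 (-0.73) fell as well. LRRC8B is a subunit of volume-regulated anion channels and PUS7 is a pseudouridine synthase.

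To see which changes differed between the inhibitors, DMA was tested directly against C646, an inhibitor of the acetyltransferases p300 and CBP. The test called 441 genes (2.89%), and 1498 with the block (9.81%). Of the 441, 144 were higher and 297 lower under DMA. This test and the test against solvent share the DMA libraries, so their results for a gene are not independent. Levels under C646 are given for some of the genes below.

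ERK feedback genes were among those that differed, with 6 of 19 higher under DMA than under C646 and none lower. Of all 15263 genes 144 were higher and 297 lower. DUSP5 was 1.54 ± 0.14 above C646 (log2, SE, adjusted p = 0.00015), SPRY4 1.49 ± 0.22 (0.0049) and SPRY1 1.86 ± 0.24 (0.0024). HIVEP3 (1.86 ± 0.17, 0.00018), KLF6 (0.90 ± 0.17, 0.014) and BCL2L1 (0.64 ± 0.12, 0.014) were also higher. CSF2 was at 3.31, 1.17 and 0.411 CPM under C646 and differed by 2.96 ± 0.53 (adjusted p = 0.012), and CXCL8 at 5.47, 8.35 and 21.8 CPM, by 2.54 ± 0.48 (0.018).

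The G1/S genes and p53 targets named above mostly gave no call between the inhibitors. CDKN1A measured 1457, 948 and 1220 CPM under C646 and differed by -0.28 ± 0.21 (adjusted p = 0.56), BTG2 by 0.03 ± 0.22 (0.97), E2F1 by -0.25 ± 0.27 (0.72) and CCNE2 by -0.35 ± 0.52 (0.81). A p that misses the threshold does not show that they act alike. Of 30 p53 targets, FAS was lower under DMA than under C646 (-0.70 ± 0.16, adjusted p = 0.035). With the block 2 of the 30 were higher and 5 lower, against 605 higher and 893 lower of all 15263 genes. MDM2 was among those 5. It measured 505, 332 and 754 CPM under C646, a difference of -0.86 ± 0.24 (adjusted p = 0.082 without and 0.044 with the block). None of 27 fork and 24 checkpoint genes passed between the inhibitors in either edgeR fit. None of the 13 mitochondrial subunits passed without the block and 1 was lower with it, and MT-ND3 differed by 0.00 ± 0.14 (387, 466 and 407 CPM under C646).

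Several genes were far lower under DMA than under C646. HKDC1 measured 36.6, 25.4 and 31.8 CPM under C646 and differed by -3.47 ± 0.30 (adjusted p = 0.00015). GCLC, the catalytic subunit of glutamate-cysteine ligase, measured 63.8, 80.2 and 165 CPM under C646 against 29.3, 28.01 and 45.3 CPM under solvent and 13.9, 15.9 and 25.8 CPM under DMA, a difference of -2.47 ± 0.37 (0.0053). Of 20 NRF2 targets and metallothioneins 10 were lower under DMA than under C646, and of 19 heat shock genes 11. None was higher in either list, and 297 of all 15263 genes were lower. Against solvent, none of the 20 NRF2 genes passed without the block and 1 fell with it, at a median of -0.06. Of the 19 heat shock genes 1 fell against solvent, at a median of -0.19. HSP90AA1 differed by -1.04 ± 0.19 (0.013). MED8 (-0.95 ± 0.14, 0.0045), WNT5A (-0.77 ± 0.11, 0.0033) and BAG2 (-0.72 ± 0.10, 0.0033), which fell against solvent, were also lower than under C646. Without single libraries this test called 180 to 316 genes, with 185, 218 and 240 without C646 library 1, 2 or 3 and 316, 192 and 180 without DMA library 1, 2 or 3.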

How the data were processed

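Poly-A RNA of RPE-1 cells was sequenced in 12 libraries (RNeasy, TruSeq Stranded mRNA, per the labels' protocols). Per the submitters' processing notes the tools were Trimmomatic 0.36 and STAR 2.7.0e with GRCh38.p10; the quantifier, annotation and strand option: not given in the sources used here. Per the file headers, each deposited table gives expected counts, TPM and an effective length, another kind of value that was not used. The deposited expected counts, where raw counts had been assumed in the design, were summed per gene over GENCODE 29 transcripts and rounded. The deposited TPM served for checks only. Of 182164 transcripts, 92 spike-in controls were kept apart and 264 (0.0923% to 0.146% of counts) matched no gene; 43481 genes resulted.

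Low genes were removed by filterByExpr (count 10, total 15), and the rest were scaled by TMM and tested with edgeR 4.0.16 (robust quasi-likelihood F-test, all 12 libraries in 1 fit), with Benjamini-Hochberg adjustment over 15263 genes and a threshold of 0.05. SE are those of the same fit. Deviations of same-numbered DMA and solvent libraries from their group means correlated at 0.331, 0.355 and 0.475 across genes, so the numbers pair the libraries by the rule of 0.1. Same-numbered ratios are differences of log2 CPM with a prior count of 2. A gene is uncertain where more than 20% of its 31-base words are shared, or of its exon bases overlap, with another gene (22 of 174 named genes).

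The members and the 54 gene lists were chosen with earlier results of these data known. Named genes are, in each direction, the 15 largest called changes without overlap of the groups and the 15 smallest p with the block and all same-numbered ratios one way (mean log2 CPM of at least 2), up to 4 members per list and direction, and a panel of 24 genes; others are named as such, and some genes of the rule are not reported here. Alternatives were DESeq2 1.42.0, its size factors, spike-in scaling, no filter, a stricter filter (1 CPM), only the compared groups, the replicate block and leaving out each library; omissions for gene lists were added after seeing the data. On simulated data for DMA against solvent with 14961 genes, the test without the block recovered 54.6% of genes changed by 1 and 77.6% of those changed by 2 on the log2 scale. With the block the values were 53.6% and 77.6%. The simulated libraries held no effect of the replicate number and no deviating library, so these rates need not hold for the data.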

Additional observations from a re-analysis of the deposited data

How the results depend on the processing

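For DMA against solvent, where 267 genes were called, DESeq2 called 1096 (542 higher, 554 lower), no filter 455, only the compared groups 31 (20 higher, 11 lower), spike-in scaling 91, the replicate block 1560 and the replicate block with only the compared groups 1948. The share of higher genes among the calls was 41.9% in the test reported, 93.4% under spike-in scaling and 64.5% with only the compared groups. Leaving out single libraries gave 1 to 286 genes without and 386 to 1961 with the block (without DMA library 2, 1 and 432; without solvent library 1, 8 and 471). For DMA against C646 (441 genes) the counts were 1055 with DESeq2, 140 with only the compared groups, 120 under spike-in scaling, 1498 with the replicate block and 1633 with the block and only the compared groups, and 180 to 316 without and 499 to 953 with the block when single libraries were left out. DESeq2 size factors and the stricter filter stayed within 1.5 times for both.

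Of 68 named genes called against solvent, 67 passed with the block, which ended the call of RN7SL2, 68 with DESeq2, 67 with its size factors, 68 under the stricter filter, 61 with no filter, 22 under spike-in scaling and 18 with only the compared groups; none changed sign. Signs changed only in genes that were not called without the block: HSPA5 (0.0022 with the replicate block, 0.27 under spike-in scaling, -0.33 to 0.28 without single libraries), MYC (0.15 and -0.17 to 0.15), ODC1 (0.17 and -0.17 to 0.050), TXNIP (-1.18 to 0.20) and NEAT1 (-1.08 to 0.072). Of 43481 genes, 15263 passed the filter on low counts, and 3 libraries a group limit the precision of each.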

Other observations

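Clock genes were lower in the members that passed with the block. None of 18 passed in edgeR without it (6 had an unadjusted p under 0.05) or in DESeq2. With the block 4 fell (5.46% of all genes did): the negative regulators PER2 (-0.77 ± 0.30, adjusted p = 0.032) and PER3 (-0.60 ± 0.24, 0.032), the activator ARNTL2 (-0.53 ± 0.20, 0.028) and the output factor HLF (-1.61 ± 0.63, 0.033). PER3 was at 9.95, 10.8 and 14.8 CPM under solvent and 5.07, 7.51 and 10.8 CPM under DMA and at 15.8, 17.8 and 21.6 CPM under C646, above DMA by 1.24 (edgeR adjusted p = 0.018 for the difference between the inhibitors). Of the 18 genes 5 were lower under DMA than under C646, as were 297 of all 15263 genes.

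Of 22 interferon-stimulated genes none passed without the block. With it 2 fell and 1 rose, close to the shares of all genes (5.46% and 4.76%). The cytoplasmic RNA sensor DDX58 (-0.74) and IFI44 (-0.91) fell and ISG20 (1.46), an exonuclease, rose with the block (adjusted p = 0.018, 0.015 and 0.032). Long noncoding hosts of small nucleolar RNAs moved in both directions: SNHG16 fell from 206, 151 and 173 to 112, 97.9 and 124 CPM (-0.66 ± 0.15, adjusted p = 0.044), and SNHG7 rose with the block (0.89, 0.010), both uncertain for overlapping genes. IRS1, an adaptor of the insulin receptor, rose and INSR, the receptor, fell with the block (0.78 and -0.60, adjusted p = 0.020 and 0.043). COL1A1, a collagen I chain, fell with the block (-1.47, adjusted p = 0.016) and was lower than under C646 by 2.20 (adjusted p = 0.039).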
